A study of Mus musculus with 17 samples.

Results

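The genes described here are the mouse phosphoinositide kinases, the lipid phosphatases that work on their products and the phospholipases C. They were given as a list of 45 gene symbols, which was matched to the gene identifiers of the count table. All 45 were found among the 31091 gene identifiers. They comprise 4 catalytic and 5 regulatory subunits of class I PI3K, 4 genes of class II and III PI3K, 4 PI 4-kinases, 7 kinases of phosphatidylinositol phosphates, 8 inositol 5-phosphatases, 3 genes grouped as 4-phosphatases and Inpp1, and 10 phospholipases C.

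Phosphoinositides are the phosphorylated forms of phosphatidylinositol, a minor lipid of the inner face of membranes. PI 4-kinases and PIP 5-kinases make PI(4,5)P2. Class I PI3K turns this lipid into PI(3,4,5)P3, which recruits AKT, TEC family kinases and other proteins with PH domains, and the phosphatase SHIP1 takes a phosphate from it again. Phospholipase C splits PI(4,5)P2 into diacylglycerol, which activates protein kinase C, and inositol trisphosphate, which releases calcium from the endoplasmic reticulum. Class III PI3K and PIKfyve make the lipids that mark endosomes, phagosomes and autophagosomes. In dendritic cells these lipids act in the uptake of particles, in migration and downstream of ITAM-coupled receptors.

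Conventional dendritic cells of type 1 (cDC1s) and type 2 (cDC2s) were compared after 6 h of culture with 1 of 3 media taken from TC-1 cells, a mouse lung epithelial tumor line transformed with HPV16 E6/E7 and H-ras. WT medium came from live TC-1 cells, BimS medium from TC-1-iBimS cells that undergo apoptosis through the BH3-only protein BimS, and RIPK3 medium from TC-1-iRIPK3 cells that undergo necroptosis through oligomerized RIPK3. The media were not centrifuged, so BimS and RIPK3 medium carried the debris of the dying cells. There were 3 samples per group, except for cDC2s with RIPK3 medium, of which 2 were analysed here.

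All groups shared the following. The cells were from spleens of female C57BL/6JRj mice aged 8 weeks that carried a subcutaneous B16 melanoma secreting FLT3L, a growth factor that expands dendritic cells, and spleens of at least 2 mice were pooled. CD11c+ cells were enriched on beads to a purity of at least 85%, cultured with GM-CSF at 2 ng/mL and sorted only after the culture, as XCR1+ CD8α+ SIRPα- cDC1s and SIRPα+ CD11b+ XCR1- cDC2s. All 3 tumor lines, WT included, received the inducer cumate for 24 h. The iBimS and iRIPK3 lines were single-cell clones, so the kind of death and the clone cannot be told apart. The labels do not say whether the replicates came from separate mice, so that the p-values measure the spread between these samples, which may be partly technical.

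The 17 samples held from 16095159 to 21645289 counts on genes (median 18986002). Replicates of a group differed by more than sampling noise, with a chi-square per degree of freedom from 3.6 to 12.7 between cDC1 and from 7.72 to 40.4 between cDC2 replicates. The pairs with WT replicate 3 (40.4 and 17.6) and BimS replicate 3 (16.4 and 13.8) in cDC2s and RIPK3 replicate 3 in cDC1s (12.7 and 9.72) stood apart. All 8 cDC1 markers and all 8 cDC2 markers differed between the cell types in the labelled direction. Some of them also differed between media within their own cell type. Against WT medium in cDC1s, 5 cDC1 markers were called with BimS (2 higher, 3 lower) and 6 with RIPK3 medium (3 higher, 3 lower), and Irf8 had means of 310, 185 and 177 CPM with WT, BimS and RIPK3 medium. In cDC2s 3 cDC2 markers were called with BimS (2 higher, 1 lower) and 5 with RIPK3 medium (2 higher, 3 lower). Of 8 genes each of B cells, T and NK cells, plasmacytoid dendritic cells and neutrophils, at most 2 of a list were called in a comparison with WT medium, and Runx2 in cDC2s with BimS medium was the only one of these that was higher. The part of these markers in the results was not tested. The summed level of 11 epithelial genes was between 1.57 and 6.54 CPM (counts scaled by library size after TMM) in every sample. Of these genes 8 could be tested in cDC1s and 6 in cDC2s, and none of those was called between media. The summed level of 10 macrophage genes was higher with both kinds of debris, through Spic alone. In cDC1s it ranged from 17.3 to 23.4 CPM with WT, from 84.3 to 113 with BimS and from 56.6 to 72.2 with RIPK3 medium. In cDC2s the ranges were 37.1 to 54.4, 77 to 88.7 and 68.5 to 84.7 CPM. Spic, a transcription factor gene of heme-handling macrophages, had means of 7.86, 92.9 and 58.9 CPM in cDC1s and 6.75, 47.9 and 46 CPM in cDC2s. The other macrophage genes called against WT medium were lower, namely Fcgr1 in cDC1s with both kinds of debris and in cDC2s with RIPK3 medium, and C1qc in cDC1s with BimS medium. Fcgr1 had means of 5.01, 2.44 and 1.15 CPM in cDC1s with WT, BimS and RIPK3 medium. C1qa, C1qb, C1qc, Mertk and Marco stayed under 1 CPM in every cDC1 group. Csf1r had means of 2.52, 1.83 and 1.62 CPM there, and Vcam1 and Adgre1 reached 1.24 and 1.12 CPM. In cDC2s the means were 15.2, 13.3 and 9.67 CPM for Fcgr1 and 18.6, 18.2 and 13.8 CPM for Csf1r. Adgre1 stood at 3.78, 3.24 and 3.96 CPM in cDC2s, and C1qb and C1qc reached 1.18 and 1.03 CPM. In sorted bulk samples, fewer cells with a transcript and less transcript per cell cannot be told apart.

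The abundance of the 45 genes spanned a wide range. In at least 1 group, 34 of them reached a mean of 10 CPM and 13 reached 100 CPM. Another 7 stayed under 1 CPM in every group, namely Pik3r3, Pik3c2b, Pip5k1b, Inpp5j, Plcb1, Plcd1 and Plcd4. The filter on low counts left 44 of 45 members in the cDC1 fit and all 45 in the cDC2 fit, with Pip5k1b as the gene not tested in cDC1s. Called means an adjusted p under 0.05 in the quasi-likelihood test of edgeR, adjusted by Benjamini-Hochberg over all genes tested. Every adjusted p below is from this test unless another is named. Where a block for the replicate number is not named, called and not called refer to the fit without it.

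Both kinds of debris changed phosphoinositide genes in both cell types. In cDC1s, BimS medium changed 12 of 44 members (5 higher, 7 lower, or 27.3%), while 13.2% of all genes tested were called (7.31% higher, 5.89% lower). RIPK3 medium changed 19 (7 higher, 12 lower, or 43.2%) beside 16.5% of all genes (8.34% higher, 8.19% lower). In cDC2s, BimS medium changed 8 of 45 (5 higher, 3 lower, or 17.8%) beside 7.01% of all genes (3.8% higher, 3.21% lower). RIPK3 medium changed 9 there (4 higher, 5 lower, or 20%) beside 7.21% (3.93% higher, 3.28% lower). Abundant genes are called more often, and among genes with a group mean of at least 10 CPM the shares were closer. They were 35.3% of members beside 26.1% of all such genes, 52.9% beside 32.1%, 23.5% beside 13.7% and 26.5% beside 13.9%, in the same order.

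The changes went in both directions. The median log2 fold change over the members was -0.04, -0.05, 0.06 and -0.03 in these 4 comparisons, beside 0.00, -0.01, -0.02 and -0.02 over all genes tested. Same-numbered replicates deviated together within a cell type, and with the replicate number as a block the counts in cDC2s rose to 19 (11 higher, 8 lower; 21.3% of all genes called) for BimS and 20 (9 higher, 11 lower; 21.4% of all genes called) for RIPK3 medium. In cDC1s the block gave 14 and 22 members, beside 17.9% and 21% of all genes. Among genes of at least 10 CPM the block called 52.9% and 55.9% of members in cDC2s, beside 42.2% and 42.7% of all such genes, and 41.2% and 61.8% in cDC1s, beside 35.2% and 40.8%. The CPM of debris and WT groups did not overlap for 15 and 21 of 44 members in cDC1s, beside 29.3% and 29.9% of all genes, and for 14 and 21 of 45 in cDC2s, beside 23% and 34.1%. Single libraries mattered in cDC2s. The count for BimS medium fell from 8 to 5 without BimS replicate 3, RIPK3 replicate 1, RIPK3 replicate 2 or WT replicate 2, and that for RIPK3 medium fell from 9 to 3 without RIPK3 replicate 2. Without WT replicate 3 of cDC2s the counts there were 8 and 9, and without RIPK3 replicate 3 of cDC1s they were 14 and 20 in cDC1s. In total, 22 members were called in at least 1 comparison of media, beside 22.1% of the 20801 genes tested in either cell type.

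**Figure D1:**
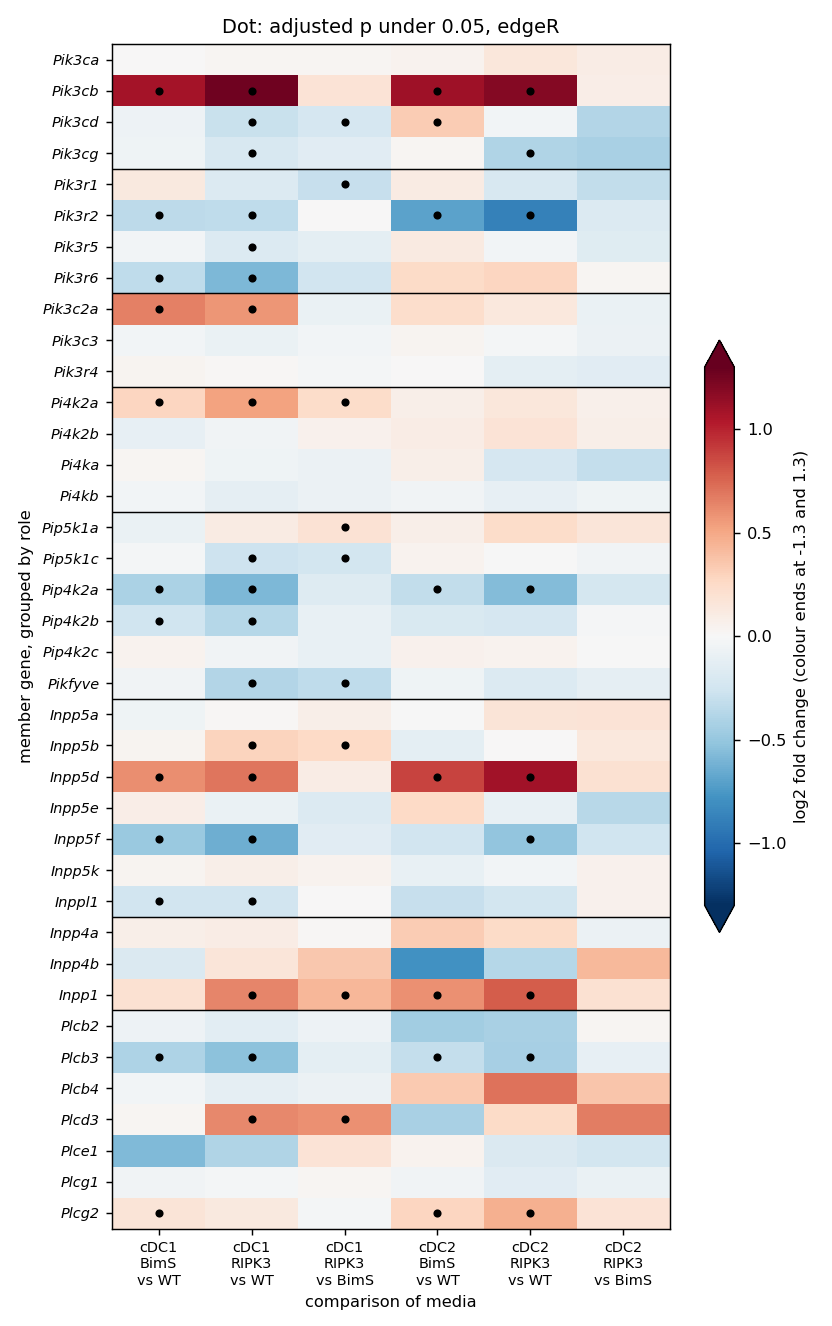
Log2 fold changes from edgeR, as a color scale, of the members that reached a mean of 1 CPM in a group and were tested in both cell types, with genes in rows grouped by role, the 6 comparisons of media in columns and a dot for an adjusted p under 0.05. Pik3cb, with log2 fold changes from 1.08 to 1.26, and Inpp5d, from 0.60 to 1.09, were higher in all 4 comparisons with WT medium.

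A group of 5 members was called in the same direction in all 4 comparisons with WT medium, beside 3.21% of all genes tested in both cell types. Pik3cb and Inpp5d were higher, and Pik3r2, Pip4k2a and Plcb3 were lower. These comparisons share their WT samples within a cell type. Between the cell types, 6 members were called the same way with BimS medium, which is 50% of the cDC1 calls and 75% of the cDC2 calls. Over all genes these shares were 34.1% and 65.2%. With RIPK3 medium there were 8, or 42.1% of the cDC1 calls and 88.9% of the cDC2 calls, beside 30.1% and 70.1% over all genes. No difference from all genes was tested.

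The promoters of these 5 genes are shown because their transcripts moved in the same way in every comparison with WT medium. Each run is the 250 bases before the start of transcription, from RefSeq on GRCm38.p6, written 5′ to 3′ along the strand of the gene. Of the 45 members, 40 had an entry, with 55 promoters among them. No entry was found for Pik3r6, Pik3c3, Pip5k1b, Pip4k2b and Inpp5j. Capitals mark matches, on either strand, to 5 motifs searched: the GC box GGGCGG of SP factors, CCAAT of NF-Y, GAGGAAG of the PU.1 type, TGANTCA of the AP-1 type and the E-box CACGTG.
Pik3cb, chr9:99140212-99140461, minus strand: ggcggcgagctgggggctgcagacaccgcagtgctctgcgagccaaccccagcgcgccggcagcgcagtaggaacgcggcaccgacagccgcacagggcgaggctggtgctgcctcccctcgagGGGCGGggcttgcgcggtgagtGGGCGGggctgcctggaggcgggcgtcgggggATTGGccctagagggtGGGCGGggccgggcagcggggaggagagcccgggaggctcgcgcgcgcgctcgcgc
Inpp5d, chr1:87620062-87620311, plus strand: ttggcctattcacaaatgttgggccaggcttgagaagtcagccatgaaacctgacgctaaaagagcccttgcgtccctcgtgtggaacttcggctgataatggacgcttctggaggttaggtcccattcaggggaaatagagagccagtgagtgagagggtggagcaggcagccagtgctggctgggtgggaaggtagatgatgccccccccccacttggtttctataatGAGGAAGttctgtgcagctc
Pik3r2, chr8:70776713-70776962, minus strand: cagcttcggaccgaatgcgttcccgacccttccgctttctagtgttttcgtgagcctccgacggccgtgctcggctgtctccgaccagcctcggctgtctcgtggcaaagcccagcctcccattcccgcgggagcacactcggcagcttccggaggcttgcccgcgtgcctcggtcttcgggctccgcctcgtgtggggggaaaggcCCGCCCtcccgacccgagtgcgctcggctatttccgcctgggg
Pip4k2a, chr2:18998122-18998371, minus strand: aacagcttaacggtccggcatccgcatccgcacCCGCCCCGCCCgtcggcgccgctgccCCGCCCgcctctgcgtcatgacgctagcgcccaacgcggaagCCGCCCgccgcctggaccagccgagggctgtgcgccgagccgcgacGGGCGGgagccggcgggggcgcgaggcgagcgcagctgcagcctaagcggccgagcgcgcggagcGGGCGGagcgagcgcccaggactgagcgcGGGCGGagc
Plcb3, chr19:6969815-6970064, minus strand: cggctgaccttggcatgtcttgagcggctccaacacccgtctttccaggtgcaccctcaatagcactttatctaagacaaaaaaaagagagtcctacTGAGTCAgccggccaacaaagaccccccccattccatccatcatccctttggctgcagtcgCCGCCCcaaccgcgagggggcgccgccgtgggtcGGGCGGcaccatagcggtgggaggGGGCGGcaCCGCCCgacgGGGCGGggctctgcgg

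These promoters differed in composition and in the motifs they held. That of Pik3cb had 3 GC boxes and 1 CCAAT match in a sequence of 78% G and C. Pip4k2a had 7 GC boxes at 78.8%, Pik3r2 had 1 at 68.4%, and Plcb3 had 5 GC boxes and 1 TGANTCA match at 64.4%. Inpp5d, a gene used mainly in blood cells, had no GC box at 54.4% G and C, and 1 GAGGAAG match, which lay between 20 and 14 bases before the start. The median of all promoters was 52.4% G and C. A GC box was found in 70.9% of the members' promoters and in 32.7% of all 32851 promoters. The other motifs were found at 36.4% and 33.8% for CCAAT, 14.5% and 10.6% for GAGGAAG, 5.45% and 6.75% for TGANTCA, and 5.45% and 6.02% for CACGTG. None of the motifs was found in both genes that rose, and none in all 3 that fell and in neither that rose. A match is a run of letters and was not tested as a binding site.

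Among the catalytic subunits of class I PI3K, Pik3cb showed the largest log2 fold change of any member called against WT medium. Pik3cb (ENSMUSG00000032462, chr9:98918704-99022674 of GRCm39, minus strand) encodes p110β, the subunit that answers both receptor tyrosine kinases and G protein-coupled receptors. In cDC1s it stood at 49.2, 44.2 and 44.3 CPM with WT medium, at 96.2, 97.3 and 97.3 with BimS and at 120, 108 and 103 with RIPK3 medium. In cDC2s the values were 15.8, 15.4 and 12.8, then 33.8, 31.2 and 29.3, then 36.9 and 30.1 CPM. Every sample with debris was above every sample with WT medium of the same cell type. In cDC1s Pik3cb rose 2.11-fold with BimS medium (log2 fold change 1.08, SE 0.0592, adjusted p = 1.46e-16) and 2.4-fold with RIPK3 medium (1.26, SE 0.0592, adjusted p = 1.33e-18). In cDC2s it rose 2.14-fold (1.10, SE 0.114, adjusted p = 2.13e-06) and 2.29-fold (1.19, SE 0.125, adjusted p = 1.94e-06). All 4 calls held when any single sample was left out.

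**Figure D2:**
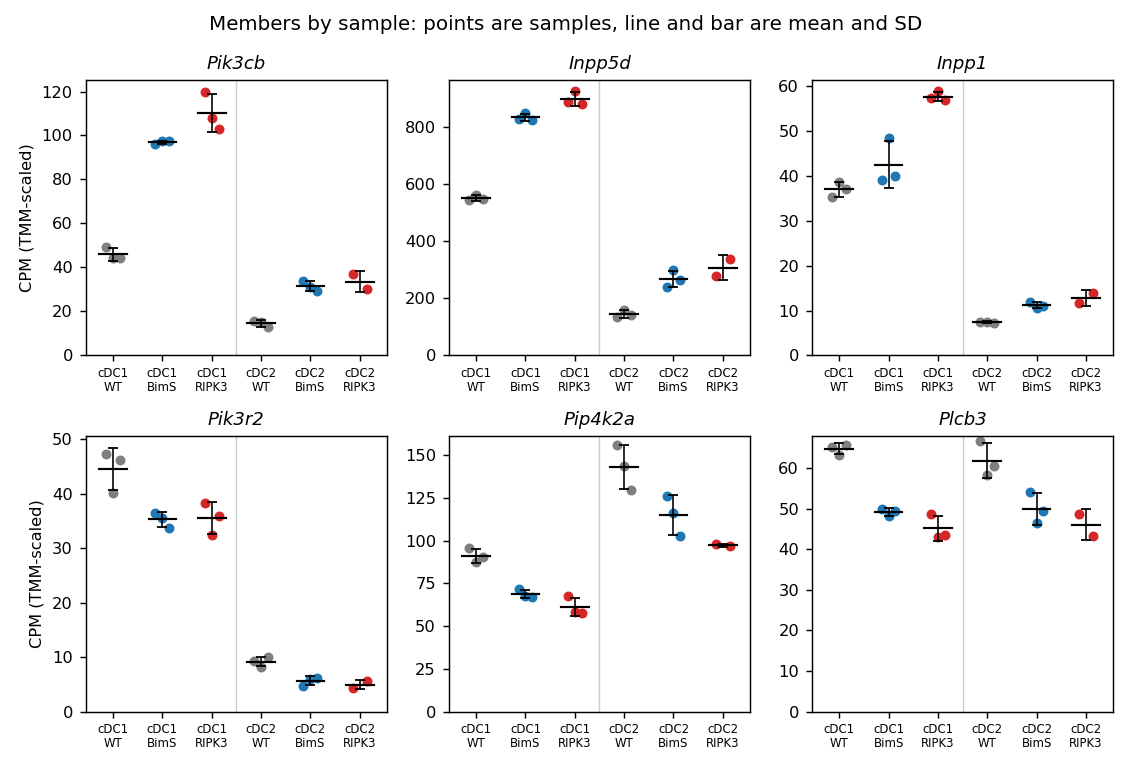
CPM by sample of Pik3cb, Inpp5d, Inpp1, Pik3r2, Pip4k2a and Plcb3, with 1 panel per gene and the 6 groups on the horizontal axis, where points are samples and the black line and bar are the mean and SD. In each cell type the samples with debris lay above those with WT medium for Pik3cb, Inpp5d and Inpp1, and below them for Pik3r2, Pip4k2a and Plcb3.

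The other 3 catalytic subunits moved less. Pik3ca, encoding p110α, was between 85.4 and 113 CPM in all samples and was called in no comparison of media. Pik3cd (chr4:149732411-149787028), encoding p110δ of leukocytes, stood at 275, 248 and 265 CPM in cDC1s with WT, at 263, 239 and 249 with BimS and at 242, 201 and 205 with RIPK3 medium. It fell with RIPK3 medium by 0.29 on the log2 scale (SE 0.0587, adjusted p = 6.11e-04). In cDC2s the order was another one. Pik3cd stood at 182, 193 and 190 CPM with WT, at 238, 236 and 238 with BimS and at 191 and 174 with RIPK3 medium. There it rose with BimS medium (0.33, SE 0.0763, adjusted p = 8.97e-03), while with RIPK3 medium the groups overlapped (-0.04, adjusted p = 0.872).

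Pik3cg, encoding p110γ, the subunit driven by G protein βγ, was the most abundant catalytic transcript per kilobase of exon. It stood at 572, 584 and 567 CPM in cDC1s with WT, at 512, 585 and 550 with BimS and at 502, 537 and 453 with RIPK3 medium, with a fall by 0.21 for RIPK3 (adjusted p = 3.55e-03). In cDC2s it was at 393, 382 and 317 CPM with WT and at 275 and 280 with RIPK3 medium, with a fall by 0.39 (SE 0.103, adjusted p = 0.0231). The cDC2 call was lost without RIPK3 replicate 1 (adjusted p = 0.207), RIPK3 replicate 2 (0.224), WT replicate 1 (0.0538) or WT replicate 2 (0.127).

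Within the class I catalytic family, counted per kilobase of exon, the share of Pik3cb was larger with debris, which is a description without a test. It made up 4.82% of the family in cDC1s with WT, 10% with BimS and 12.3% with RIPK3 medium. In cDC2s it made up 2.24%, 4.33% and 5.67%. Pik3cg held the main part throughout, at 59.8%, 56.3% and 54.9% in cDC1s and 55.3%, 50.6% and 46.7% in cDC2s.

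**Figure D3:**
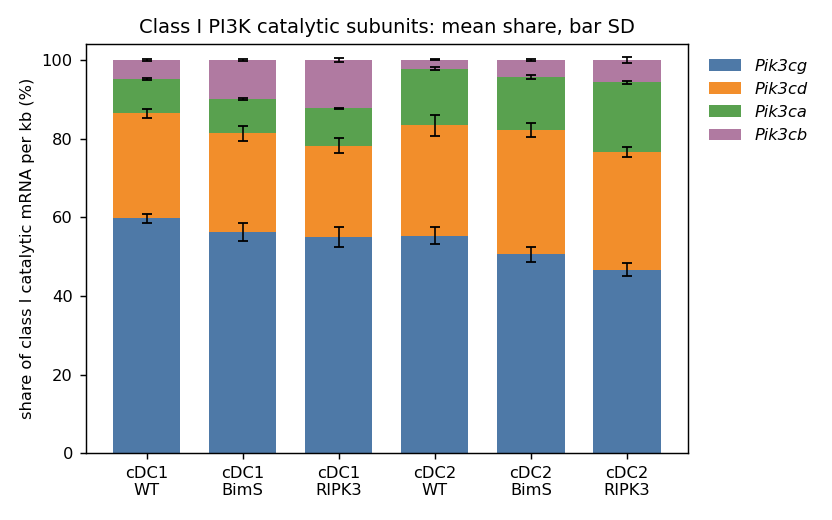
Share of each class I PI3K catalytic subunit gene, in percent of the family's counts per kilobase of exon, as stacked group means for the 6 groups with bars for the SD. The share of Pik3cb was 4.82%, 10% and 12.3% in cDC1s and 2.24%, 4.33% and 5.67% in cDC2s with WT, BimS and RIPK3 medium.

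Without the replicate block the regulatory subunits of class I PI3K fell or did not pass the test, and none of the 5 was called higher against WT medium. With the block 1 was called higher in cDC1s with BimS medium. In cDC2s the block called 3 higher with BimS and 2 higher with RIPK3 medium. Pik3r2 (ENSMUSG00000031834, chr8:71220774-71229412) encodes p85β, which stabilizes the p110 subunits and recruits them to phosphotyrosine. Its levels in cDC1s were 47.3, 40.2 and 46.2 CPM with WT, 36.5, 35.6 and 33.7 with BimS and 38.3, 32.4 and 35.9 with RIPK3 medium. It fell by 0.34 (SE 0.0707, adjusted p = 6.29e-04) and 0.33 (SE 0.071, adjusted p = 5.54e-04). In cDC2s, where it was scarcer, it stood at 9.28, 8.22 and 9.93 CPM with WT, at 4.69, 5.98 and 6.22 with BimS and at 4.39 and 5.53 with RIPK3 medium. There the fall was by 0.70 (SE 0.153, adjusted p = 0.006) and 0.88 (SE 0.178, adjusted p = 2.95e-03). The groups did not overlap in any of these 4 comparisons. Without RIPK3 replicate 1 the cDC2 call for RIPK3 medium was lost (adjusted p = 0.0977).

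Pik3r1, encoding p85α, was the main class IA regulatory gene and differed little from WT medium. It stood at 371, 337 and 349 CPM in cDC1s with WT, at 406, 369 and 379 with BimS and at 354, 312 and 273 with RIPK3 medium. Neither difference from WT was called (0.13, adjusted p = 0.346, and -0.18, adjusted p = 0.134), but RIPK3 was below BimS medium (-0.30, SE 0.073, adjusted p = 0.0303). That call was lost without BimS replicate 1 (adjusted p = 0.0995), BimS replicate 3 (0.101) or RIPK3 replicate 2 (0.0997). With the replicate block Pik3r1 was called in all 6 comparisons of media, higher with BimS and lower with RIPK3 medium in both cell types. Per kilobase, Pik3r2 made up 17.7%, 13.5% and 16.2% of the class IA regulatory genes in cDC1s and 2.61%, 1.48% and 1.65% in cDC2s.

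Pik3r3, encoding p55γ, was at the limit of detection. It had 6, 7 and 3 counts in cDC2s with WT, 13, 9 and 6 with BimS and 15 and 15 with RIPK3 medium (log2 fold change 1.64, SE 0.504, adjusted p = 0.0543). The replicate block gave 1.41 and an adjusted p of 0.0485. Its exons overlap those of Gm49337 on the same strand over 22.7% of their length. Pik3r3 was drawn by the study from these same samples, so that its value is not independent evidence of a direction.

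Of the 2 partners of p110γ, Pik3r6 was the one whose response was called different between the cell types. Pik3r6 (ENSMUSG00000046207, chr11:68393845-68443524) encodes p84, also called p87, and Pik3r5 encodes p101. In cDC1s Pik3r6 stood at 12.7, 11.2 and 11.2 CPM with WT, at 10.8, 8.2 and 9.11 with BimS and at 8.44, 7.7 and 7.49 with RIPK3 medium. The fall was by 0.33 with BimS (SE 0.112, adjusted p = 0.0473) and by 0.58 with RIPK3 medium (SE 0.115, adjusted p = 2.58e-04). In cDC2s the values were 36.1, 36.1 and 38.4, then 41.5, 48 and 41.9, then 43.1 and 46.3 CPM. Both groups with debris lay above WT in cDC2s without passing the test (0.25, adjusted p = 0.125, and 0.28, adjusted p = 0.124). With the block both differences were called (adjusted p = 5.82e-04 for BimS medium). The cDC1 call for BimS medium was lost in 5 of 9 leave-one-out fits, those without any of the WT replicates, BimS replicate 2 or BimS replicate 3 (adjusted p from 0.0675 to 0.275).

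The difference between the cell types in the response of Pik3r6 was itself tested. The cDC1 response minus the cDC2 response was -0.58 with BimS (SE 0.135, adjusted p = 0.0293) and -0.87 with RIPK3 medium (SE 0.144, adjusted p = 6.77e-04). The RIPK3 value held without any single sample but not with limma and no normalization (-0.80, adjusted p = 0.0547), while the BimS value lost its call without cDC1 WT replicate 1, cDC1 BimS replicate 2, cDC1 BimS replicate 3, cDC2 WT replicate 2 or cDC2 BimS replicate 2 (adjusted p from 0.0703 to 0.133). Pik3cd was the only other member with such a difference, at -0.40 with BimS medium (SE 0.097, adjusted p = 0.0381), and its call was lost in 8 of 17 leave-one-out fits (adjusted p from 0.0522 to 0.139). These were the fits without cDC1 WT replicate 1 or 3, cDC1 BimS replicate 2 or 3, cDC2 WT replicate 2 or any of the cDC2 BimS replicates. Thus 2 members were called for the BimS interaction, beside 0.87% of all genes, and 1 for the RIPK3 interaction, beside 1.14%. With the block these counts were 3 and 4, beside 2.32% and 2.35% of all genes, and Inpp5d joined for both media and Pi4k2a and Plcg2 for RIPK3 medium. Pik3r5 was abundant in both cell types, with group means from 479 to 679 CPM, and fell with RIPK3 medium in cDC1s by 0.18 (adjusted p = 6.21e-03), a call lost without WT replicate 1 (adjusted p = 0.0537).

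Of the class II and III PI3K genes, Pik3c2a alone was called between media. Pik3c2a (ENSMUSG00000030660, chr7:115936490-116042707) encodes a clathrin-binding kinase of endocytic membranes. In cDC1s it stood at 72.2, 79 and 73 CPM with WT, at 108, 129 and 117 with BimS and at 113, 117 and 102 with RIPK3 medium. It rose 1.58-fold (0.66, SE 0.0616, adjusted p = 4.26e-10) and 1.48-fold (0.57, SE 0.0618, adjusted p = 1.01e-08), with no overlap between debris and WT medium. In cDC2s the samples spread more widely, at 86.3, 76.8 and 56 CPM with WT, at 89.5, 93.3 and 74.6 with BimS and at 83.1 and 78.2 with RIPK3 medium. Neither cDC2 difference was called (0.23, adjusted p = 0.444, and 0.14, adjusted p = 0.72). With the replicate block BimS medium was (0.24, adjusted p = 3.03e-05), and each cDC2 sample with BimS was above the WT sample of the same number. The difference between the cell types did not pass the test either (0.43, SE 0.169, adjusted p = 0.434, and 0.41, SE 0.181, adjusted p = 0.512). Pik3c3, the class III catalytic subunit VPS34, and Pik3r4, its scaffold VPS15, had group means between 64.7 and 76.4 CPM and between 45.2 and 50.1 CPM and were not called between media. Pik3c2b was under 1 CPM.

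The PI 4-kinases were represented by a response of Pi4k2a in cDC1s. Pi4k2a (ENSMUSG00000025178, chr19:42078834-42119217) encodes the type IIα kinase of the trans-Golgi network and endosomes. In cDC1s it stood at 174, 191 and 181 CPM with WT, at 221, 220 and 221 with BimS and at 256, 273 and 258 with RIPK3 medium. The 3 groups did not overlap and were ordered WT, BimS and RIPK3. It rose 1.22-fold with BimS (0.28, SE 0.0488, adjusted p = 4.41e-05) and 1.44-fold with RIPK3 medium (0.52, SE 0.0487, adjusted p = 1.28e-10), and RIPK3 was above BimS medium by 0.24 (SE 0.0485, adjusted p = 1.71e-03). These calls held without any single sample. With limma and no normalization only the call of RIPK3 against WT was kept, and the others were lost (BimS against WT 0.25, adjusted p = 0.137; RIPK3 against BimS 0.16, adjusted p = 0.566).

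In cDC2s Pi4k2a was at 59.1, 62.4 and 63.4 CPM with WT, at 61.6, 63.8 and 70 with BimS and at 66.8 and 69.6 with RIPK3 medium (0.15, adjusted p = 0.457 for RIPK3 against WT). The block gave an adjusted p of 0.0218 there. The cDC1 response minus the cDC2 response to RIPK3 medium was 0.37 (SE 0.0966, adjusted p = 0.0601), and it was called with the block. Exons of Pi4k2a overlap Avpi1 on the opposite strand over 11% of their length, and Avpi1 had means of 79.7, 78 and 85.8 CPM in the 3 cDC1 groups and 59.6, 67.1 and 70.3 CPM in the 3 cDC2 groups. Whether the counting used strand is not given in the sources used here. Pi4ka, Pi4kb and Pi4k2b had group means between 25.7 and 50 CPM and were not called.

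The kinases of phosphatidylinositol phosphates fell where they were called against WT medium without the block. With the block 1 of them was called higher in cDC2s with RIPK3 medium. Pip4k2a (ENSMUSG00000026737, chr2:18847065-19003140) encodes a type II kinase that turns PI5P into PI(4,5)P2. Its cDC1 levels were 95.7, 87.3 and 90.3 CPM with WT, 71.5, 67.4 and 67.2 with BimS and 67.6, 58.3 and 57.9 with RIPK3 medium. It fell by 0.41 (SE 0.0593, adjusted p = 2.51e-06) and 0.58 (SE 0.06, adjusted p = 1.62e-09). In cDC2s the values were 156, 144 and 130, then 126, 116 and 103, then 98.1 and 96.8 CPM, with falls by 0.32 (adjusted p = 0.0366) and 0.56 (adjusted p = 1.39e-03). Samples with debris did not overlap those with WT medium in either cell type. The cDC2 call for BimS medium was lost in 6 of 8 leave-one-out fits (adjusted p from 0.071 to 0.176) and held without BimS replicate 1 or WT replicate 3. That for RIPK3 medium was lost without RIPK3 replicate 2 (adjusted p = 0.0654).

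Its paralog Pip4k2b fell in cDC1s from 63.5, 61.5 and 59.5 CPM with WT to 55.2, 49.3 and 49.1 with BimS and to 51.3, 46.8 and 45.3 with RIPK3 medium. The falls were by 0.26 (adjusted p = 2.34e-03) and 0.37 (adjusted p = 2.65e-05). Pip4k2c, the third gene of the type, had group means between 76.2 and 90.8 CPM and was not called. Per kilobase, Pip4k2a made up 36%, 31.4% and 30.3% of the 3 type II kinases in cDC1s and 52.9%, 47.8% and 44.1% in cDC2s.

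Other kinases of this class changed with RIPK3 medium in cDC1s. Pip5k1c, encoding the type Iγ kinase of phagocytic cups and adhesions, was at 275, 266 and 271 CPM with WT, at 265, 263 and 266 with BimS and at 236, 222 and 217 with RIPK3 medium. It fell by 0.27 against WT (SE 0.0467, adjusted p = 3.3e-05) and by 0.24 against BimS medium (adjusted p = 1.25e-03). Pikfyve, encoding the kinase that makes PI(3,5)P2 on late endosomes, was at 58, 59.1 and 59.3 CPM with WT, at 56.2, 58.7 and 55.3 with BimS and at 50, 49.2 and 36.8 with RIPK3 medium. It fell by 0.38 against WT (SE 0.0787, adjusted p = 1.11e-03) and by 0.33 against BimS medium (adjusted p = 0.0166). The call against BimS medium was lost without BimS replicate 1 (adjusted p = 0.0519) or BimS replicate 2 (0.0635).

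Pip5k1a, encoding the type Iα kinase, went the other way between the 2 kinds of debris. It was at 60.7, 65.2 and 64.9 CPM with BimS and at 77.2, 71.9 and 70.3 with RIPK3 medium (0.19, SE 0.0567, adjusted p = 0.0409). This call held only without RIPK3 replicate 3 and was lost in the other 8 leave-one-out fits (adjusted p from 0.0537 to 0.187). Pip5k1b was nearly absent, with group means of at most 0.11 CPM.

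Among the 5-phosphatases Inpp5d had the most abundant transcript per kilobase and the largest fold changes called. Inpp5d (ENSMUSG00000026288, chr1:87547989-87648230) encodes SHIP1, which removes the 5-phosphate of PI(3,4,5)P3 in blood cells. In cDC1s it stood at 545, 563 and 548 CPM with WT, at 828, 848 and 826 with BimS and at 886, 926 and 880 with RIPK3 medium. It rose 1.51-fold (0.60, SE 0.0436, adjusted p = 3.98e-13) and 1.62-fold (0.70, SE 0.0437, adjusted p = 4.76e-15). In cDC2s it stood at 133, 160 and 141 CPM with WT, at 241, 298 and 265 with BimS and at 277 and 338 with RIPK3 medium. There it rose 1.85-fold (0.88, SE 0.0997, adjusted p = 6.17e-06) and 2.12-fold (1.09, SE 0.109, adjusted p = 1.17e-06). Debris and WT medium did not overlap, and all 4 calls held without any single sample. The responses of the 2 cell types differed by -0.29 and -0.40 on the log2 scale, which was not called (adjusted p = 0.329 and 0.0941) but passed with the block for both media.

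The paralog of Inpp5d, Inppl1 (SHIP2), is found in most tissues. It stood at 30.6, 35.5 and 33 CPM in cDC1s with WT, at 25.5, 28.3 and 29.3 with BimS and at 30.7, 27.3 and 25.8 with RIPK3 medium. It fell by 0.25 in both cases (adjusted p = 0.0212 and 0.0224). The BimS call was lost without WT replicate 2 (adjusted p = 0.163), WT replicate 3 (0.0547) or BimS replicate 1 (0.129). The RIPK3 call was lost without WT replicate 2 (0.161), WT replicate 3 (0.0553), RIPK3 replicate 2 (0.0743) or RIPK3 replicate 3 (0.0697). Of the 2 SHIP genes, counted per kilobase, Inpp5d made up 93.2%, 96.1% and 96.3% in cDC1s and 81.9%, 91.1% and 91.8% in cDC2s.

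Inpp5f, encoding SAC2, a 4-phosphatase of endosomes despite its name, was lower with debris in 3 of the 4 comparisons with WT medium. In cDC1s it was at 22.6, 19.8 and 22.6 CPM with WT, at 15.5, 15 and 16.1 with BimS and at 15.9, 14.5 and 11.5 with RIPK3 medium. It fell by 0.48 (SE 0.0936, adjusted p = 2.44e-04) and 0.63 (SE 0.0955, adjusted p = 3.25e-06). In cDC2s it was at 27.9, 24.1 and 20.2 CPM with WT, at 20.8, 21.5 and 18.8 with BimS and at 19.1 and 14.9 with RIPK3 medium. The BimS group overlapped WT and was not called (-0.25, adjusted p = 0.312), and with RIPK3 medium the fall was by 0.51 (adjusted p = 0.0357). The cDC2 call held without BimS replicate 3 or WT replicate 3 and was lost in the other 6 leave-one-out fits (adjusted p from 0.0507 to 0.486). Its exons overlap Mcmbp on the opposite strand over 21.7% of their length. Mcmbp had higher means, of 96.7, 85.3 and 91.2 CPM in the cDC1 groups and 82.2, 74.9 and 81.1 CPM in the cDC2 groups, also below WT with debris. Its part in the values of Inpp5f was not tested.

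Inpp5b, the relative of the Lowe syndrome gene OCRL, rose with RIPK3 medium in cDC1s. It was at 71.9, 74 and 73 CPM with WT, at 72.3, 77.1 and 75 with BimS and at 87.3, 97.4 and 84.5 with RIPK3 medium. The rise was by 0.29 against WT (SE 0.0566, adjusted p = 1.67e-04) and by 0.26 against BimS medium (adjusted p = 4.42e-03), and the latter call was lost without RIPK3 replicate 2 (adjusted p = 0.0771). Inpp5a, Inpp5e, Inpp5j and Inpp5k were not called between media.

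Inpp1 rose in both cell types. Inpp1 (ENSMUSG00000026102, chr1:52823863-52884045) encodes a soluble phosphatase that takes the 1-phosphate from inositol bisphosphate, a step in the return of inositol to lipid synthesis. In cDC1s it stood at 35.3, 38.6 and 37.2 CPM with WT, at 39.1, 48.5 and 40 with BimS and at 57.3, 58.9 and 56.9 with RIPK3 medium. RIPK3 medium raised it 1.55-fold against WT (0.63, SE 0.0687, adjusted p = 4.47e-09) and 1.35-fold against BimS medium (0.43, SE 0.0681, adjusted p = 7.88e-05). BimS against WT gave 0.20 (adjusted p = 0.0519), and with the block this was called (adjusted p = 8.24e-03). In cDC2s the values were 7.54, 7.48 and 7.19, then 12, 10.6 and 11, then 11.6 and 14 CPM. There both BimS (0.59, SE 0.128, adjusted p = 5.37e-03) and RIPK3 medium (0.79, SE 0.14, adjusted p = 8.1e-04) raised it, and the RIPK3 call was lost without RIPK3 replicate 2 (adjusted p = 0.0506). The 4-phosphatases Inpp4a and Inpp4b were not called between media without the block. With the block both were called in cDC2s with BimS medium, Inpp4a higher and Inpp4b lower than with WT medium.

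Of the 10 phospholipases C, 3 were called between media. Plcb3 (ENSMUSG00000024960, chr19:6929693-6953838) encodes an isoform that Gq and G protein βγ activate. In cDC1s it was at 65.3, 63.3 and 65.8 CPM with WT, at 50, 48.1 and 49.5 with BimS and at 48.8, 43.1 and 43.5 with RIPK3 medium. It fell by 0.40 (SE 0.0596, adjusted p = 4.17e-06) and 0.53 (adjusted p = 1.4e-08). In cDC2s it was at 66.7, 58.4 and 60.5 CPM, then 54, 46.4 and 49.4, then 48.7 and 43.3, with falls by 0.31 (adjusted p = 0.0426) and 0.43 (adjusted p = 0.0126). Samples with debris did not overlap those with WT medium. The cDC2 call for BimS medium was lost in 7 of 8 leave-one-out fits and held without WT replicate 3 (adjusted p from 0.0521 to 0.231 where lost). That for RIPK3 medium was lost without RIPK3 replicate 2 (adjusted p = 0.281).

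Plcg2, encoding the phospholipase C of ITAM-coupled receptors, was the main isoform, at 49.8% of the family per kilobase in cDC1s and 51.1% in cDC2s with WT medium. In cDC1s it stood at 109, 104 and 106 CPM with WT, at 118, 118 and 121 with BimS and at 123, 114 and 113 with RIPK3 medium. In cDC2s it stood at 74.9, 73.7 and 66.7, then 84.5, 89.2 and 87.3, then 97.3 and 99.9 CPM. No sample with debris was below a sample with WT medium of its cell type. Plcg2 rose with BimS medium in cDC1s (0.17, adjusted p = 0.0228) and in cDC2s (0.28, adjusted p = 0.0479) and with RIPK3 medium in cDC2s (0.46, SE 0.0909, adjusted p = 2.37e-03). In cDC1s with RIPK3 medium the difference was 0.13 (adjusted p = 0.0736). The cDC1 call was lost without WT replicate 2 (adjusted p = 0.101), WT replicate 3 (0.0919), BimS replicate 2 (0.0548) or BimS replicate 3 (0.125). The cDC2 BimS call held only without WT replicate 1 (adjusted p from 0.0757 to 0.181 in the other 7 fits), and the cDC2 RIPK3 call was lost without RIPK3 replicate 2 (0.0567).

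Plcd3 was the phospholipase C that separated the 2 kinds of debris in cDC1s. Plcd3 (ENSMUSG00000020937, chr11:102960063-102993677) encodes a δ isoform that calcium activates. It stood at 4.46, 5.39 and 4.24 CPM with WT, at 4.95, 4.81 and 4.63 with BimS and at 7.88, 7.65 and 6.11 with RIPK3 medium. It rose 1.54-fold against WT (0.62, SE 0.141, adjusted p = 1.26e-03) and 1.5-fold against BimS medium (0.59, SE 0.141, adjusted p = 0.0101), while BimS and WT medium overlapped. The call against BimS was lost without RIPK3 replicate 2 (adjusted p = 0.052). In cDC2s it stood at 3.95, 3.6 and 2.95, then 2.37, 2.59 and 2.9, then 4.26 and 4.08 CPM. RIPK3 was above BimS medium there by 0.67 (SE 0.211, adjusted p = 0.262), which passed with the block (0.64, adjusted p = 0.0263). Plcd3 shares 26% of its exon length with Acbd4 on the opposite strand, and Acbd4 had means of 8.14, 7.14 and 9.80 CPM in the cDC1 groups and 9.52, 8.40 and 11.4 CPM in the cDC2 groups. Plcb1, Plcd1 and Plcd4 were under 1 CPM, and Plcb2, Plcb4, Plce1 and Plcg1 were not called between media without the block. For Plcb2 each cDC2 sample with debris was below the WT sample of the same number (means of 15.2, 11.1 and 11.3 CPM with WT, BimS and RIPK3 medium).

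The direct comparison of necroptotic with apoptotic debris asked which of these genes separate the 2 kinds of death. In cDC1s it gave 9 members (5 higher and 4 lower with RIPK3 medium), or 20.5% beside 4.15% of all genes (1.94% higher, 2.21% lower). With the block there were 13, beside 8.87% (35.3% of members beside 19.4% of all genes at 10 CPM or more). The groups did not overlap for 12 of 44 members, beside 19% of all genes. Among genes of at least 10 CPM the share was 23.5% beside 9.06%. Inpp1, Plcd3, Inpp5b, Pi4k2a and Pip5k1a were higher with RIPK3 medium, and Pikfyve, Pik3r1, Pip5k1c and Pik3cd were lower. For Pik3cd (-0.22, adjusted p = 0.0298) the groups overlapped, and its call was lost without BimS replicate 1, BimS replicate 3, RIPK3 replicate 2 or RIPK3 replicate 3 (adjusted p from 0.0932 to 0.161). Without RIPK3 replicate 2 the count fell from 9 to 5. Between the same groups 3 of 8 cDC1 markers were called, Cd8a higher (means of 12.1 and 18.7 CPM with BimS and RIPK3 medium) and Itgae (32.2 and 24.8) and Wdfy4 (527 and 452) lower. The macrophage gene Fcgr1 was called lower as well (2.44 and 1.15). Their part in these calls was not tested. Inpp1, Pi4k2a and Pip5k1c kept their calls without any single sample. With limma and no normalization 2 members were called, Pikfyve and Pik3r1, both lower, and the calls of Inpp1 (0.36, adjusted p = 0.0582), Pi4k2a (0.16, adjusted p = 0.566) and Pip5k1c (-0.32, adjusted p = 0.061) were lost. Inpp1, Pi4k2a and Plcd3 are genes that the study picked out of these same samples, so their calls are not independent evidence of a direction. Pik3cb, Inpp5d, Pik3r2, Pip4k2a and Plcb3, which both kinds of debris changed, were not called between them without the block. With it, Pik3cb was higher (0.18, adjusted p = 5.43e-03) and Pip4k2a lower (-0.17) with RIPK3 medium.

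**Figure D4:**
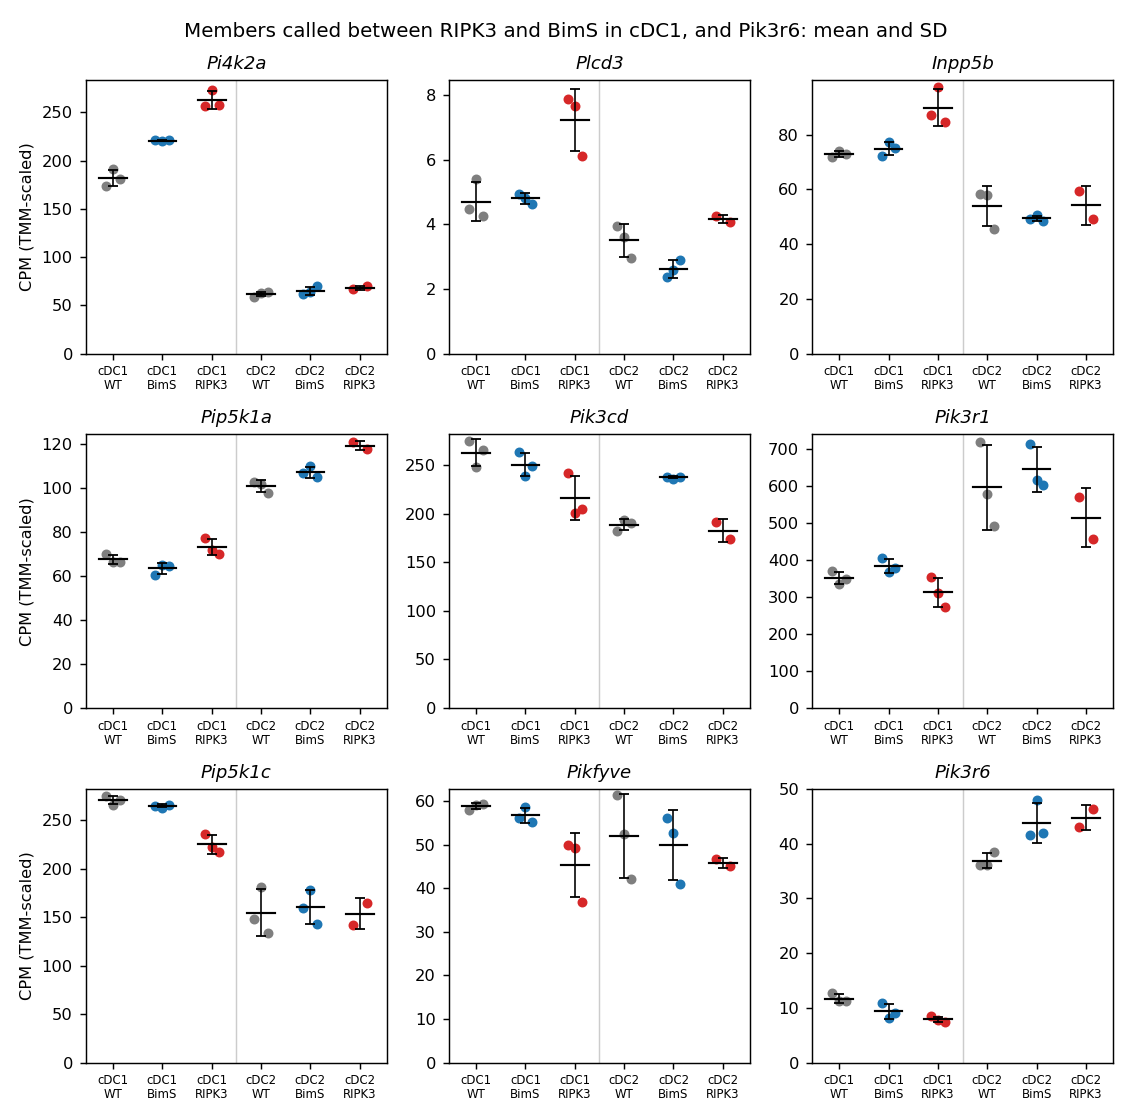
CPM by sample of 8 members called between RIPK3 and BimS medium in cDC1s, and of Pik3r6, with 1 panel per gene and the 6 groups on the horizontal axis, where points are samples and the black line and bar are the mean and SD. In cDC1s Pi4k2a lay between 256 and 273 CPM with RIPK3 medium and at 220 to 221 CPM with BimS medium, while in cDC2s its groups lay close together.

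In cDC2s no member was called between RIPK3 and BimS medium by edgeR, beside 0.379% of all genes. There were 6 members with an unadjusted p under 0.05, and DESeq2 called 2. Without WT replicate 1 or WT replicate 3, 2 were called. With the replicate block edgeR called 13 (3 higher, 10 lower), beside 14.3% of all genes. Among genes of at least 10 CPM the block called 35.3% of members beside 30.5% of all such genes, a share near the background. The B-cell gene Ighm was the one marker called between these groups, at means of 28.1 CPM with BimS and 44.9 with RIPK3 medium, and its part was not tested. The groups did not overlap for 16 of 45 members, beside 26.8% of all genes. In the fit with the block Inpp5a (0.20), Inpp5d (0.19) and Plcd3 (0.64) were higher with RIPK3 medium. Pik3cd fell by 0.37 (adjusted p = 2.06e-11), Pik3r1 by 0.42 (adjusted p = 1.22e-16) and Pik3cg by 0.50 (adjusted p = 1.09e-21). These adjusted p come from a fit of 8 samples, 2 of them with RIPK3 medium, and its block was chosen from the same data. Without the block none of these genes was called. No member differed between the cell types in its response to RIPK3 against BimS medium in the edgeR interaction (0.0314% of all genes called), where 2 had an unadjusted p under 0.05 and DESeq2 called 0.

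The cell types themselves differed in most of these genes. Over all media, 35 of 44 members were called between cDC1s and cDC2s (20 higher and 15 lower in cDC1s), or 79.5% beside 59.8% of all genes (30.4% higher, 29.4% lower). Among genes of at least 10 CPM the share was 88.2% beside 81.5%. The samples with WT medium alone gave 25 members, 16 higher and 9 lower, beside 41.2% of all genes (20.3% higher, 20.9% lower). No call was lost when a single sample was left out. A fit by limma without normalization called 23 higher and 8 lower.

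Every class held genes that were higher in cDC1s and genes that were lower there. Plcb2, the β isoform of blood cells, was at 77.8, 81.3 and 77.9 CPM in cDC1s and at 13.9, 17.6 and 14.1 in cDC2s with WT medium (log2 fold change over all samples 2.57). Pik3r2 (2.52), Inpp1 (2.12) and Plcb4 (1.99) followed, with no overlap between the cell types. Plcb4 was at 6.82, 7.53 and 8.21 CPM in cDC1s against 1.79, 1.6 and 0.912 in cDC2s with WT medium. Pi4k2a (1.73), Inpp5d (1.70) and Pik3cb (1.65), which answered debris as well, were also higher in cDC1s. Plce1 (chr19:38469411-38773474), a phospholipase C that Ras activates, was near the floor of detection. It had 13 to 25 counts per sample in cDC1s and 0 to 2 in cDC2s, or 165 against 5 counts in all, a ratio of 26.1 per library size with an exact 95% interval from 11 to 81.4 that covers counting error only.

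Lower in cDC1s were the p84 subunit gene Pik3r6 (-2.11), Plcd1 (-1.88), Inpp5a (-0.99), Inpp4b (-0.77) and Pik3r1 (-0.76). Pik3r6 was at 12.7 CPM or less in every cDC1 sample and at 36.1 CPM or more in every cDC2 sample. Per kilobase, Pik3r6 made up 3.52%, 2.91% and 2.68% of the 2 p110γ partners in cDC1s and 9.1%, 9.79% and 11% in cDC2s. Inpp5a, the enzyme that ends the inositol trisphosphate signal, was at 29.2, 30.6 and 30.6 CPM in cDC1s and 51.7, 61.1 and 57.5 in cDC2s with WT medium. Plcd1 had 1 to 6 counts per cDC1 sample and 5 to 14 per cDC2 sample. Inpp4b had 18 to 28 counts per cDC1 sample and 14 to 55 per cDC2 sample, and its CPM overlapped between the cell types. Pi4k2a made up 50.8% of the PI 4-kinases in cDC1s and 25.2% in cDC2s with WT medium, and Pip5k1a 18.4% and 37.3% of the type I PIP kinases.

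**Figure D5:**
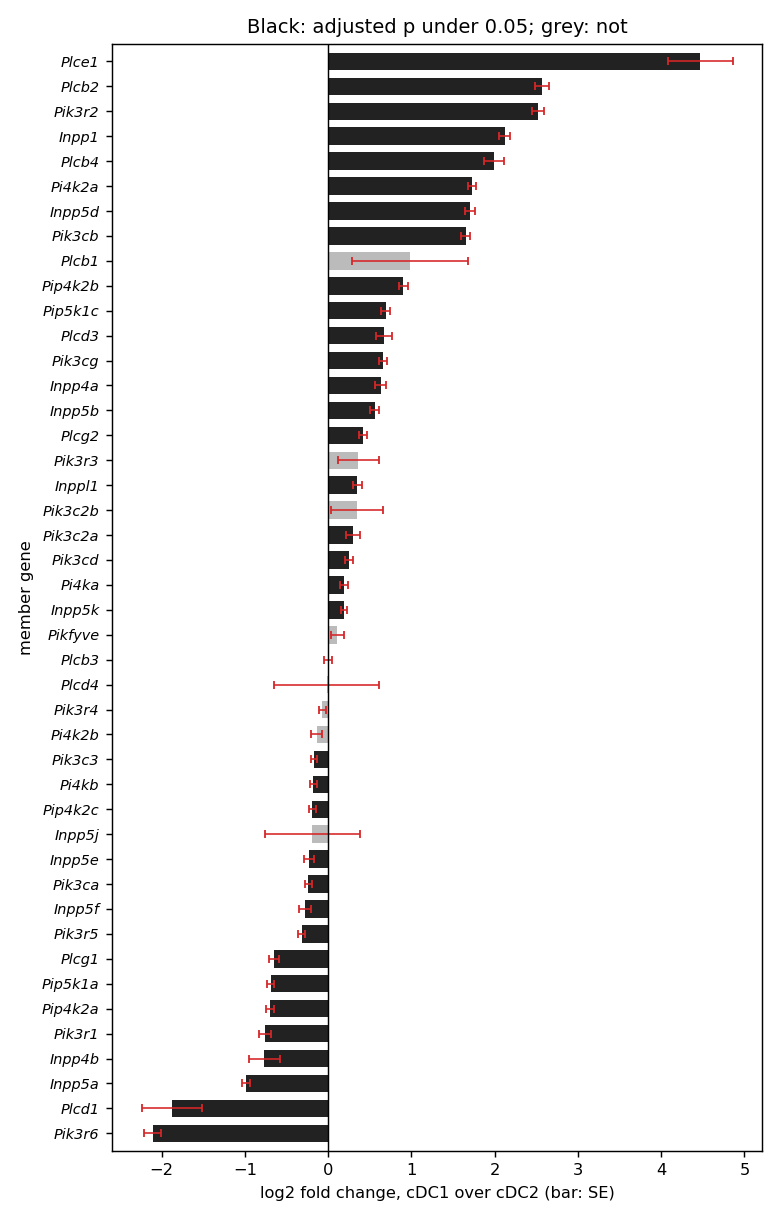
Log2 fold changes of cDC1s over cDC2s over all 17 samples for the 44 members tested, ordered by size, with red bars for the SE, black columns for an adjusted p under 0.05 and grey columns for the others. The columns run from Plce1, Plcb2 (2.57) and Pik3r2 (2.52) on the side of cDC1s to Plcd1 (-1.88) and Pik3r6 (-2.11) on the side of cDC2s.

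Other genes of the pathway were taken from a list of 89, which covered other lipid phosphatases, inositol phosphate enzymes, lipid synthesis, receptors and adaptors of PI3K, and effectors of PI(3,4,5)P3, diacylglycerol and inositol trisphosphate. Of 86 tested in cDC1s, BimS medium changed 20 (11 higher, 9 lower) and RIPK3 medium 23 (12 higher, 11 lower), and 5 differed between the 2 (2 higher, 3 lower). These were 23.3%, 26.7% and 5.81%, beside 13.2%, 16.5% and 4.15% of all genes. Of 82 tested in cDC2s, 6 were called with BimS (4 higher, 2 lower), 7 with RIPK3 medium (5 higher, 2 lower) and none between them by edgeR, with 8 at an unadjusted p under 0.05. The shares of 7.32% and 8.54% were near the 7.01% and 7.21% of all genes. The replicate block raised the cDC2 counts to 26, 35 and 22 beside 21.3%, 21.4% and 14.3% of all genes, and that between the 2 debris types in cDC1s to 16, beside 8.87%.

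Pip4p2, encoding a phosphatase that takes PI(4,5)P2 to PI5P on phagosomes and lysosomes, had the largest fold change of those called higher. Its mean was 1.72, 6.19 and 7.51 CPM in cDC1s and 1.02, 5.35 and 5.4 CPM in cDC2s, with log2 fold changes of 1.85 and 2.12 in cDC1s and 2.40 and 2.42 in cDC2s. Cds2, which makes the CDP-diacylglycerol needed for phosphatidylinositol, had means of 72.9, 124 and 120 CPM in cDC1s (0.77 and 0.71) and 51.4, 63.3 and 59.8 CPM in cDC2s (0.30 and 0.22, the first with an adjusted p of 0.0414 that was lost in all 8 leave-one-out fits).

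Among the effectors, the protein kinase C gene Prkch fell in cDC1s from a mean of 35.5 to 22.7 and 22.6 CPM (-0.65 and -0.66). Itpkb, which turns inositol trisphosphate into tetrakisphosphate, fell in cDC1s with BimS (-0.43, adjusted p = 1.32e-05) and RIPK3 medium (-0.53) and in cDC2s with BimS medium (-0.66), a call lost without WT replicate 2, BimS replicate 1 or BimS replicate 3 (adjusted p from 0.0915 to 0.136). The PI(4,5)P2 5-phosphatase gene Ocrl fell from 16.4 to 11.3 CPM in cDC1s with RIPK3 medium (-0.55). The adaptor gene Gab1 rose in cDC2s from 3.23 to 5.31 and 6.13 CPM (0.71 and 0.92). Its BimS call was lost without WT replicate 2 or BimS replicate 3 (adjusted p from 0.0559 to 0.0744) and its RIPK3 call without RIPK3 replicate 1 (0.0729).

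Pik3ap1, the adaptor BCAP that binds PI3K below B-cell and Toll-like receptors, rose in cDC2s with RIPK3 medium from a mean of 85 to 126 CPM (0.57, adjusted p = 0.0119), a call lost without RIPK3 replicate 2 (adjusted p = 0.224). The inositol trisphosphate receptor gene Itpr3 fell there from 4.98 to 2.68 CPM (-0.88, adjusted p = 0.0349), which was lost without either RIPK3 replicate or WT replicate 2 (adjusted p from 0.0805 to 0.374). The inositol monophosphatase gene Impa2 fell in cDC1s with BimS medium from 8.75 to 6.12 CPM (-0.52, adjusted p = 8.62e-03), which was lost without WT replicate 3 or BimS replicate 1 (adjusted p from 0.0518 to 0.069). Prkcq, encoding protein kinase C θ, stayed under 1 CPM in every group, with a call for RIPK3 medium in cDC1s (adjusted p = 0.046) that was lost in 4 of 9 leave-one-out fits, those without WT replicate 1 or 3 or RIPK3 replicate 1 or 3.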

How the data were processed

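RNA of 17 samples in 6 groups was sequenced. The authors trimmed the paired reads of 54 bases with SeqPurge, aligned them with STAR 2.7.10a to GRCm39 with Ensembl gene models and deposited the resulting counts per gene from gensum 0.2.1, without normalization. Such counts depend on gene length and on how reads of overlapping genes are assigned. A deposited normalized table was not used here. Of 31239 lines in the count table, 148 carry no gene identifier and hold at most 0.0366% of the counts of a sample. Neither library sizes nor tests include them.

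The test was the quasi-likelihood F-test of edgeR 4.0.16 under R 4.3.3 (robust, TMM). A gene entered a fit if at least 50% of its samples had a count above 0, and p-values were adjusted by Benjamini-Hochberg over all genes, with a threshold of 0.05. The 9 cDC1 samples (19513 genes) and the 8 cDC2 samples (19239 genes) were fitted apart. All 17 samples (19082 genes) were fitted with the medium as a term for cDC1s against cDC2s, and as 6 groups for the interactions. CPM used TMM factors over all samples. Replicates of a group differed by more than sampling noise (chi-square from 3.6 to 40.4 per degree of freedom).

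Members and lists were chosen with earlier results of these data known. Values are given for members called between the 2 debris types or in an interaction, for those called against WT with an absolute log2 fold change of at least 0.5, for the 5 largest differences in each direction between the cell types, and for Inpp1, Plcd3, Pi4k2a and Pik3r3, which the study names or draws. Other members with values were chosen after their values were seen. Related genes were named from a call with an absolute log2 fold change of at least 0.5 in a comparison of media. Tec, given for its call in an interaction, was added after its values were seen. The remaining related genes appear as counts, and 1 gene that the rule names is not reported here.

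Pairing by replicate number was checked through correlations of the samples' deviations from their group means. Within a cell type, 16 of 16 same-numbered pairs were above 0.1 (median 0.347), against 4 of 32 other pairs (median -0.181). Across cell types, 19 of 24 and 4 of 48 pairs were above 0.1. The pairing thus comes from the data and not from the labels.

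Alternatives were DESeq2 1.42.0, RLE size factors, filterByExpr, no filter, limma 3.58.1 on log2(count + 1) without normalization as in the study's methods, the replicate block and each sample left out in turn. The fits were tested on simulated data with 200 changed genes. Of these, 200 were recovered in the cDC1 fit and 199 in the cDC2 fit of BimS against WT. The comparison of cell types recovered 200 and the BimS interaction 198. Genes left unchanged made up 3.85%, 3.4%, 3.85% and 5.26% of the calls, in the same order. Recovery of log2 fold changes under 1, the size of most calls between media given here, was not tested.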

Additional observations from a re-analysis of the deposited data

Results flagged for a closer look

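A handful of genes responded differently in cDC1s and cDC2s by the test of that difference (edgeR, cDC1 response minus cDC2 response on the log2 scale). Pik3r6, encoding the p84 partner of p110γ, gave -0.58 with BimS and -0.87 with RIPK3 medium. Pik3cd, encoding p110δ, gave -0.40 with BimS medium. Of the related genes, Cds2, which makes CDP-diacylglycerol, gave 0.47 with BimS (adjusted p = 0.0134) and 0.48 with RIPK3 medium (adjusted p = 0.018). The BimS value of Cds2 lost its call without cDC1 WT replicate 1, cDC1 BimS replicate 3, cDC2 WT replicate 2 or cDC2 BimS replicate 1 (adjusted p from 0.0538 to 0.0727). Its RIPK3 value lost the call without cDC1 WT replicate 1, cDC1 RIPK3 replicate 1, cDC2 WT replicate 2 or cDC2 RIPK3 replicate 2 (adjusted p from 0.066 to 0.171). Tec, a kinase recruited by PI(3,4,5)P3, gave 0.58 with RIPK3 medium (adjusted p = 3.11e-04), with means of 132, 164 and 171 CPM in cDC1s and 131, 140 and 112 CPM in cDC2s with WT, BimS and RIPK3 medium, and kept its call without any single sample.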

How the results depend on the processing

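Among the 71 calls of members named by the rule for values, none turned its direction under any setting run. A fit by limma without normalization called 7 members for BimS against WT in cDC1s, 2 between RIPK3 and BimS in cDC1s (0 higher, 2 lower), 4 for BimS against WT in cDC2s (2 higher, 2 lower) and 0 in the BimS and RIPK3 interactions. For RIPK3 against WT in cDC2s it gave 3 higher and 6 lower. This setting moved the median log2 fold change of all genes to -0.123 for RIPK3 against WT in cDC1s, to -0.174 in cDC2s and to 0.201 between the cell types. RLE size factors gave 5 higher and 1 lower for BimS against WT in cDC2s.

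With the replicate block, 19, 20 and 13 members were called in cDC2s in the order BimS against WT, RIPK3 against WT, RIPK3 against BimS, and 4 for the RIPK3 interaction. DESeq2 called 2 between RIPK3 and BimS in cDC2s and 4 in the RIPK3 interaction, no filter gave 3 and 4, and filterByExpr gave 2 in that interaction. The samples with WT medium alone gave 25 members between the cell types. Leaving out each sample in turn gave 9 to 14, 18 to 20 and 5 to 10 members in cDC1s and 5 to 8, 3 to 9 and 0 to 2 in cDC2s, in the same order. It gave 35 to 36 between the cell types, and 0 to 3 and 1 to 3 in the BimS and RIPK3 interactions.

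The cause of these moves was not tested. Of 447 values of these 71 calls under the other settings, 420 kept their call and 27 lost it. In the leave-one-out fits 757 of 817 kept it and 60 lost it. The 71 calls include those between the cell types, none of which was lost in these fits. All 60 losses thus fell on comparisons of media and interactions. Members that the rule does not name, such as Inppl1 and Plcg2, are not in these counts. With 2 samples of cDC2s with RIPK3 medium, leaving out either left 1, which was assumed to vary like the other groups. Members under 1 CPM had few counts, so their fold changes have wide errors.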
